A study of Mus musculus with 10 samples.

Results

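The central and 3′ part of the 18S ribosomal RNA, the RNA of the small ribosomal subunit, was examined in a mouse RiboMeth-seq series. It comprises the 1202 positions from 45S 4676 to 45S 5877, which are nucleotides 669 to 1870 of 18S when 4007 is subtracted. They were chosen by position alone, and they are 1202 of the 13591 positions tabulated, of which 13400 lie on the 45S pre-rRNA and 191 on U2 small nuclear RNA. All positions below are 45S positions.

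The series holds 10 libraries in 5 groups of 2, which the labels call biological replicates. One group is mouse embryonic stem cells (ESCs), which received no antisense oligonucleotide according to the labels. In the remaining 4 groups, neurons made by doxycycline induction of Ngn2 took up an antisense oligonucleotide (ASO) freely, at 10 uM, and were harvested for RNA after 72 to 96 hours. A Snord101 ASO was set against a non-targeting ASO, and a Snord89 ASO against non-targeting controls of its own. Each knockdown rests on 1 ASO, and the level of the targeted RNA was not analysed here. The sequence of the non-targeting ASO is not given in the sources used here. The Snord101 ASO is shown because it defines the group in which 45S 5248 was called, with capitals marking the 5 modified (MOE) nucleotides at each end and lower case the 10-nucleotide gap.
Snord101 ASO: GGGTAtccgacaattCAAGT

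Box C/D small nucleolar RNAs (snoRNAs), which include Snord101 and Snord89, base-pair with a target RNA and place fibrillarin so that it methylates the ribose of 1 chosen nucleotide. Many ribose methyl groups of rRNA lie in conserved, functional parts of the ribosome, and in the 3′ part of 18S several surround the decoding centre, where codon and anticodon meet. RiboMeth-seq reads them as gaps: alkaline hydrolysis cuts RNA, a methylated ribose resists the cut, and fewer sequenced fragments end there. The score divides a position's ends by the weighted mean of its neighbours, 6 on each side, and subtracts the quotient from 1, so it runs from 0 (no protection, or more ends than the neighbours) towards 1 (no ends).

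The region held 4008703 to 4556936 ends in the ESC libraries and 19236080 to 31789710 in the neuron libraries, which is between 21 and 24.8% of each library's 45S ends (95% exact binomial half-width at most 0.0210 percentage points, counting error only). The lowest flanking mean of any position was 15.8 ends in ESCs and 179 in neurons. Scores of the libraries of a group differed by 0.0194 to 0.0338 on average over the 1202 positions, and the libraries of a group were not copies of one another by their counts (lowest chi-square per degree of freedom 48.7). The ESC table counts 5′ ends and the neuron tables count 5′ plus 3′ ends. ESC and neuron scores are therefore different measures, and cell type and end type cannot be told apart.

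A list of 19 ribose-methylated nucleotides of human 18S, taken from general knowledge and given with their usual guide snoRNAs, was placed on the mouse numbering. No sequence of the mouse 45S RNA was used, so the placement was made from the scores. The planned single offset, the one with the highest median control score, was 0, and at that offset 10 of 19 listed positions had a score of at least 0.75 in all 4 control neuron libraries. The first 6 listed positions instead lined up at an offset of 1. With an offset of 1 up to 45S 5039 and 0 from 45S 5279 on, which was chosen after seeing the data, 16 of 19 reached 0.75. Because the placement used the scores, their height is a description without a test, and base identities are not given. The guides are named as in human, and 10 of the 17 guide names matched a mouse gene symbol in the RefSeq table for GRCm38.p6, regardless of case and with SNORD59 taken as Snord59a.

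**Figure D1:**
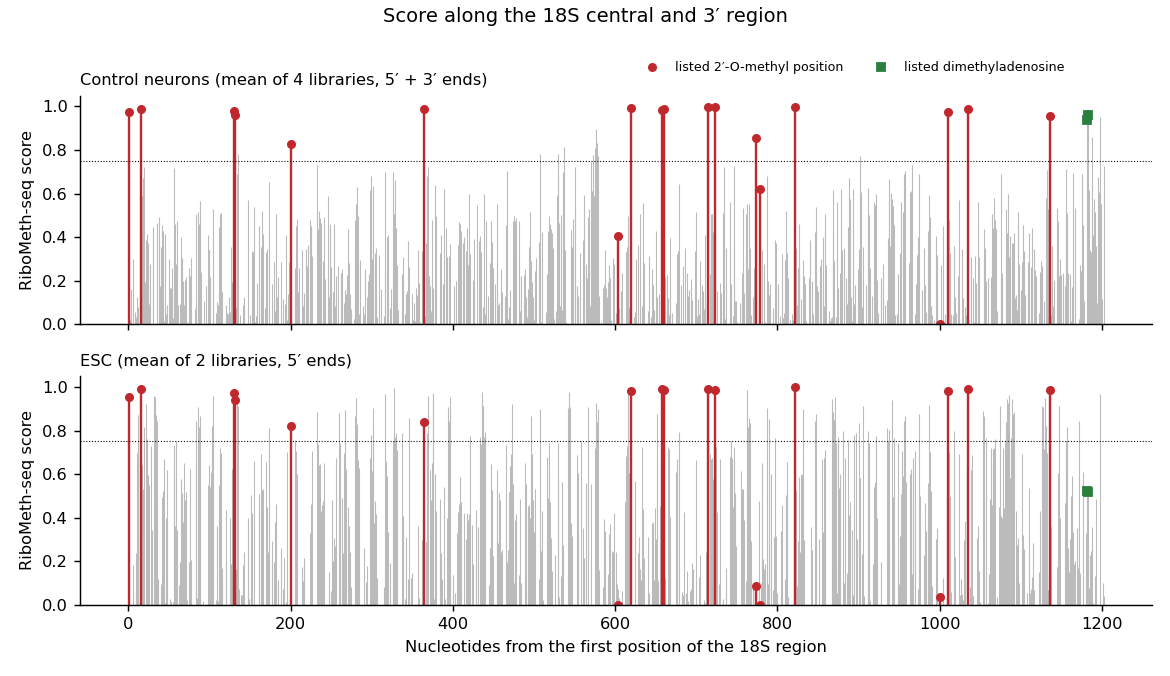
RiboMeth-seq score (vertical axis, 0 to 1) at each of the 1202 positions, against nucleotides from the start of the region, as the mean of the 4 control neuron libraries (top) and of the 2 ESC libraries (bottom). Red points are the listed 2′-O-methyl positions, green squares the listed dimethyladenosines and the dotted line a score of 0.75. In the top panel 24 positions reached 0.75 in all 4 libraries, 16 of them listed.

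The sites, placed by the control scores, had a median control score of 0.980, against a median of 0.110 over the whole region. In ESCs the medians were 0.979 and 0.102. At the planned single offset the listed positions had medians of 0.857 in the controls and 0.936 in ESCs. Of the 19, 14 had a score of at least 0.9 in all 4 controls, and 13 had it in all 10 libraries. Along the region in stretches of 200 positions, the listed sites numbered 5, 1, 0, 8, 2 and 3, so the fourth stretch was the richest. By the mean of the 4 controls the deepest gap was at 45S 5497, a site guided by SNORD25, although in the Snord101 set the SNORD28 site 45S 5398 scored slightly higher. At 45S 5497, 70 and 102 ends were counted in the controls of the Snord101 set and 83 and 82 in those of the Snord89 set, and its scores in these 4 libraries were 0.997 each. ESCs had 5 and 1 ends there, with scores of 0.999 and 1.000.

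The first 6 listed sites lie in the central domain, which forms the platform of the small subunit. The SNORD36 site 45S 4676 scored 0.976 and 0.973 in the Snord101-set controls and 0.978 and 0.976 in the Snord89-set controls. The SNORD19 site 45S 4691 and the close pair at 45S 4805 and 45S 4807, the second of which is the SNORD105 site, scored 0.954 or more in each control library. At the SNORD59 site 45S 5039 the controls scored 0.991, 0.987, 0.985 and 0.985, and the ESC libraries scored 0.841 and 0.838. The SNORD98 site 45S 4875 was the lowest of the 6. It scored 0.894 and 0.860 in the Snord101-set controls and 0.780 and 0.771 in the Snord89-set controls, so the control sets did not overlap there, and ESCs scored 0.840 and 0.798.

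The remaining 13 listed sites lie in the 3′ domain, which holds the head of the small subunit and the 3′ side of the decoding centre. Scores of at least 0.979 were reached in all 4 controls at the SNORD110 site 45S 5295, the SNORD33 site 45S 5333, the SNORD32A site 45S 5335, the SNORD30 site 45S 5390, the SNORD28 site 45S 5398 and the SNORD43 site 45S 5710. The sites at 45S 5685 (SNORD82) and 45S 5811 (SNORD20) had mean control scores of 0.974 and 0.956. Every one of these 8 sites also scored at least 0.978 in both ESC libraries.

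**Figure D2:**
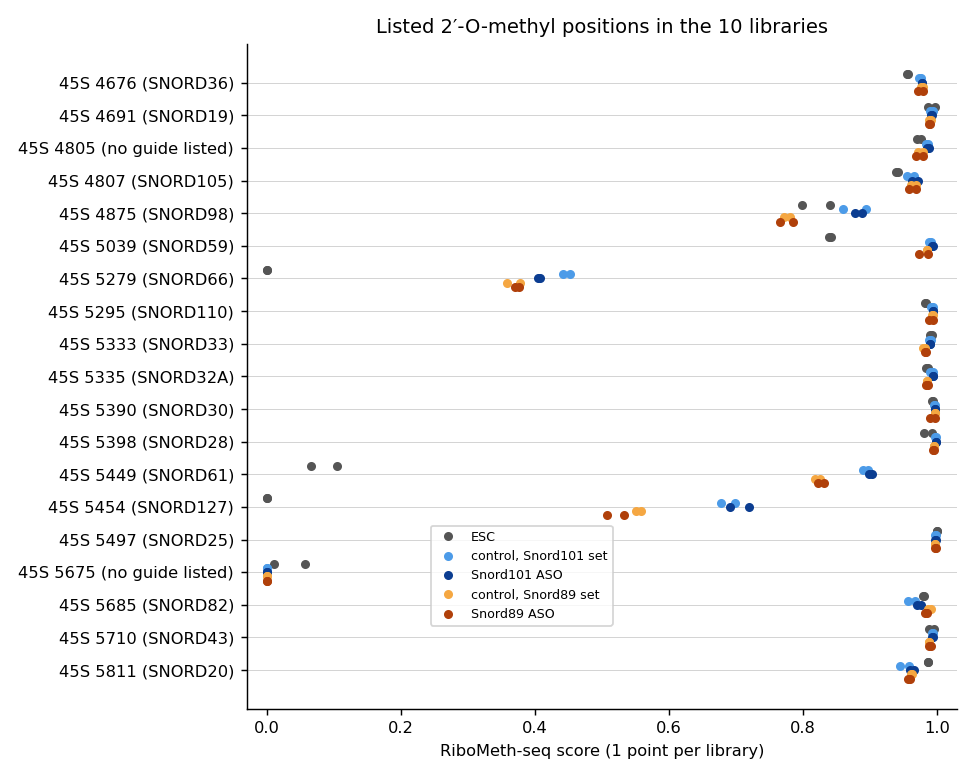
RiboMeth-seq score (horizontal axis) of the 19 listed positions, 1 point per library, coloured by group. Most sites sit near 1 in all groups. The sites at 45S 5279, 5449 and 5454 are lower and spread by group, and 45S 5675 sits at 0 in all 8 neuron libraries.

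A few listed sites were weak or differed by set. The SNORD66 site 45S 5279 scored 0.452 and 0.442 in the Snord101-set controls, 0.358 and 0.378 in the Snord89-set controls and 0 in both ESC libraries. At the SNORD127 site 45S 5454 the scores were 0.699 and 0.678, 0.551 and 0.558, and again 0 in both ESC libraries. The SNORD61 site 45S 5449 scored 0.889 and 0.897 in the Snord101-set controls and 0.825 and 0.817 in the Snord89-set controls, against 0.066 and 0.104 in ESCs, where 8881 and 8753 ends were counted. At 45S 5675, a listed site with no guide named here, the score was 0 in all 8 neuron libraries and 0.057 and 0.010 in ESCs, so no protection was measured at that position.

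Beyond the list, 8 positions reached 0.75 in all 4 controls, which brings the region's count to 24 of 1202, or 2.00% (1.79% over the 45S). Those at 45S 5857 and 45S 5858 are the places of the dimethyladenosines near the 3′ end of 18S, whose 2 methyl groups sit on the base and are added by DIMT1. In the controls 45S 5857 scored 0.927, 0.920, 0.957 and 0.952 and 45S 5858 scored 0.953, 0.956, 0.968 and 0.967. In ESCs, in the same order, they scored 0.60 and 0.448, and 0.544 and 0.490. The positions 45S 5251 and 45S 5253 lie 4 and 2 nucleotides before 45S 5255, the place of a hypermodified uridine (m1acp3Ψ) that blocks reverse transcription. Their control scores ranged from 0.867 to 0.914 and from 0.795 to 0.886, and in ESCs they were 0.939 and 0.918, and 0.855 and 0.822. The hypermodified uridine itself scored between 0.034 and 0.241 in the controls. The other 4 positions were 45S 4810, 45S 5212, 45S 5862 and 45S 5873. At 45S 5212 and 45S 5862 both ESC libraries scored 0, whereas 45S 5873, 4 nucleotides before the last position, scored 0.914 or more in each of the 10 libraries. Its score rested on few ends, 18 and 19 in the Snord101-set controls and 53 and 44 in the Snord89-set controls.

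The places of other base modifications stayed under 0.75 in every library. The acetylcytidine place 45S 5344 scored 0 in all 10 libraries, and the other one, 45S 5849, scored 0.496 and 0.486 in the Snord101-set controls and 0 in the Snord89-set controls and ESCs. At the N7-methylguanosine place 45S 5646 the controls ranged from 0 to 0.381. The N6-methyladenosine place 45S 5839 ranged from 0.662 to 0.719 in the controls and scored 0.251 and 0.421 in ESCs.

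In ESCs 126 positions of the region, 10.5%, reached 0.75 in both libraries (14.1% over the 45S), and 15 of them were listed sites. Of the 24 control-neuron positions 19 were among these 126, which is 79.2% of the neuron set and 15.1% of the ESC set. Over the 45S the shared positions were 185 of 239, or 77.4% of the neuron set and 9.91% of the ESC set. The 111 ESC positions off the list were selected by their ESC scores alone. Their median control score was 0.352, against 0.110 over the whole region, and 73 of them were under 0.5 in the controls. Off the list, 45S 5044 scored 0.962 and 0.959 in ESCs, 0.807 and 0.757 in the Snord101-set controls and 0.651 and 0.682 in the Snord89-set controls. In the 5′ part of 18S that precedes the region, 27 positions or 4.04% reached 0.75 in the controls and all 27 did so in ESCs. These shares were set side by side without a test, since neighbouring positions share the same flanking ends.

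The Snord101 and Snord89 comparisons asked whether lowering either snoRNA changes protection at any position. At the 19 listed sites the score differences were small in both comparisons, but most of these sites score close to 1, where a change in their few ends barely moves the score. In the Snord101 knockdown the lowest score difference was -0.0410 (45S 5279), the highest 0.0165 (45S 5454), and 15 of 19 differences were under 0.01. In the Snord89 knockdown the lowest was -0.0340 (45S 5454), the highest 0.00594 (45S 5449), and 18 of 19 were under 0.01. For scale, the libraries of 1 neuron group differed at a single listed site by up to 0.0337, at 45S 4875 in the Snord101-set controls.

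Ends were tested with edgeR's quasi-likelihood test relative to the flanking mean, at positions whose mean score reached 0.5 and whose mean flanking count reached 10, with p-values adjusted over every tested position of the table. This covered 152 positions of the region for Snord101 and 146 for Snord89, and 17 of the 19 listed sites in each. On this scale, which is not limited near a score of 1, the listed sites ranged from -0.50 (45S 5685) to 0.05 (45S 5710) for Snord101. There 15 of 17 were below 0 (88.2%, region 44.1%), with a median of -0.12, against a median of 0.03 over the region. For Snord89 they ranged from -0.15 (45S 5333) to 1.11 (45S 5390). There 5 of 17 were below 0 (29.4%, region 35.6%), with a median of 0.07, against 0.04. In either knockdown 0 of 17 passed (lowest edgeR adjusted p = 0.375 and 0.315). At an unadjusted p under 0.05 there were 0 and 1 of them, and without a score minimum 0 of 19 passed. In both comparisons some fits less 1 library, which leave 1 library in a group, did call listed sites. Among these were 45S 5685 for Snord101 and 45S 5390 for Snord89. The listed site with the highest end ratio in the Snord89 comparison was 45S 5390, where the controls had 133 and 110 ends and the knockdown 138 and 341. Its log2 end ratio was 1.11 (edgeR adjusted p = 0.315) at a score difference of -0.00399, and the higher value came from 1 of the 2 knockdown libraries. At 45S 5685, the listed site with the lowest Snord101 end ratio, the controls scored 0.966 and 0.956 and the knockdown 0.976 and 0.969 (log2 end ratio -0.50, edgeR adjusted p = 0.375).

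**Figure D3:**
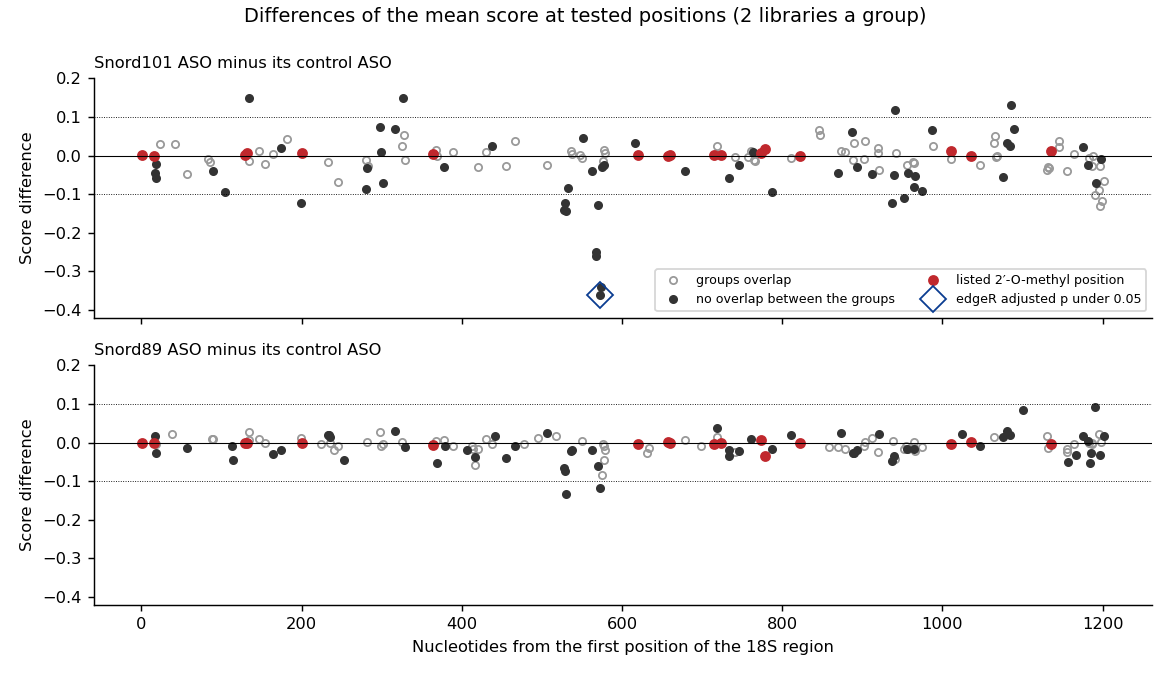
Difference of the mean score, knockdown minus control (vertical axis), at the 152 and 146 tested positions of the region, against nucleotides from its start. Filled points have no overlap between the 2 knockdown and 2 control libraries, red points are listed sites and the diamond is the 1 position past the edgeR threshold. The listed sites lie close to 0, and in the Snord101 comparison the largest negative differences lie around 45S 5248.

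Of the 152 positions tested for Snord101, 1 passed, 45S 5248 (background 1.01% of the positions tested over the 45S), and 19 had an unadjusted p under 0.05. It is not a listed site, and it lies 7 nucleotides before the hypermodified uridine. It scored 0.826 and 0.786 with the non-targeting ASO and 0.441 and 0.449 with the Snord101 ASO, and the groups lay apart. The mean fell from 0.806 ± 0.0287 to 0.445 ± 0.00581 (SD, n = 2 each). Relative to its flanks it had more ends in the knockdown, by 1.52 on the log2 scale (SE 0.20, edgeR adjusted p = 0.0249). With the Snord89 ASO it scored 0.632 and 0.632, against 0.703 and 0.796 in the controls of that set, which did not pass (log2 end ratio 0.56, edgeR adjusted p = 0.182). Both ESC libraries scored 0. Without a score minimum 2 of 1202 members passed for Snord101 (background 0.369%), 45S 5248 and 45S 5246, and 0 for Snord89 (background 0.297%; 99 at an unadjusted p under 0.05).

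For Snord89 0 of 146 tested members passed (background 0.546%), and 14 had an unadjusted p under 0.05. limma also passed 0 (1 of 1465 over all tested positions), and DESeq2 passed 2 (36 of 1465), 45S 5248 and 45S 5776. At 45S 5248 the DESeq2 adjusted p was 0.0428. Its Snord89 log2 end ratio was 0.85 and 0.31 without control replicates 1 and 2 of that set. It was 0.56 without either knockdown replicate. Against the median of the flanks its Snord89 ratio was -0.0252 (edgeR adjusted p = 0.936). In both comparisons the counts of calls changed when 1 library was left out, which leaves 1 library in a group.

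The ends at 45S 5248 itself differed little, and those around it differed more. Its counts were 839 and 853 with the non-targeting ASO and 987 and 712 with the Snord101 ASO, or 6.12 and 5.96 against 7.38 and 7.22 CPM (ends scaled to 1000000 45S ends in the library). The flanking mean went from 4835 and 3983 ends to 1765 and 1292. On the log2 scale the share of ends at the position differed by 0.27 and that of its flanks by -1.26. When each position was set against the median of its flanks, 45S 5248 did not enter the test, and 0 positions of the region passed (16 at an unadjusted p under 0.05). On TMM library sizes without the flanking offset, the log2 ratio at 45S 5248 was 0.24 and the call was lost (edgeR adjusted p = 0.803). The call was also lost with limma (log2 ratio 1.53, adjusted p = 0.157) and less knockdown replicate 1 or 2 (log2 ratio 1.51 and 1.53, edgeR adjusted p = 0.345 and 0.104), where the ratio itself stayed near 1.52.

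The flanks of 45S 5248 hold a peak of ends 2 nucleotides upstream, at 45S 5246, and a second peak stands 45 nucleotides before that, at 45S 5201. Both were lower in each knockdown than in its controls. At 45S 5246 the Snord101-set controls had 33620 and 24376 ends and the knockdown 3928 and 3388, or 245 and 170 against 29.4 and 34.4 CPM. The Snord89-set controls had 15125 and 31541 and the knockdown 6077 and 5975, or 160 and 350 against 71.5 and 75.6 CPM. In neither set did the groups overlap, and the control libraries of a set differed from each other by more than the knockdown libraries did.

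At 45S 5201 the same pattern was measured. The Snord101-set controls had 438 and 292 CPM and the knockdown 82.7 and 77.1. The Snord89-set controls had 238 and 572 and the knockdown 103 and 101. ESCs, where 5′ ends alone were counted, had 66.8 and 87.7 at 45S 5201 and 64.4 and 65.1 at 45S 5246. Because both positions carry more ends than their neighbours, their score was 0 in every neuron library and does not register these differences.

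**Figure D4:**
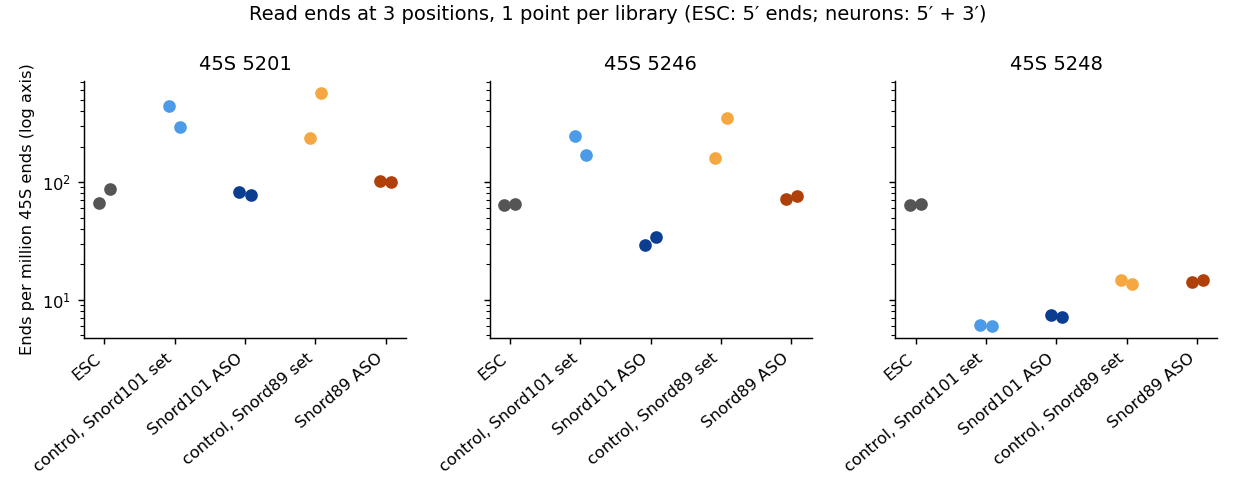
CPM of 45S ends (log axis), 1 point per library, at 45S 5201, 45S 5246 and 45S 5248. At the first 2 positions both knockdown groups sit below their own controls, whereas at 45S 5248 the knockdown and control libraries of a set lie close together.

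A test of each position's own share of ends, with edgeR on TMM library sizes and without flanks or a score minimum, was added after these peaks were seen. In the Snord101 comparison 2 of 1202 members passed (background 0.415%, or 0.4% with fewer ends), 45S 5246 with a log2 ratio of -2.74 (SE 0.23, edgeR adjusted p = 0.0105) and 45S 5201 with -2.22 (SE 0.21, edgeR adjusted p = 0.0136). In the Snord89 comparison the 2 members that passed (background 0.251%, or 0.213% with fewer ends) were again 45S 5201, at -1.91 (SE 0.27, edgeR adjusted p = 0.00942), and 45S 5246, at -1.72 (SE 0.25, edgeR adjusted p = 0.00942). All 4 results passed in each of 7 alternatives, but the number of members called did not hold. With the replicate number as a block it was 3 of 1202 for Snord101 (86 of 12997 over all tested positions). For Snord89 it was then 42 of 1202 (503 of 13141). It also changed when 1 library was left out, which leaves 1 library in a group. Without control replicate 2 of the Snord89 set the log2 ratios were -1.18 at 45S 5201 and -1.08 at 45S 5246. Relative to the flanking mean and without a score minimum, 45S 5246 passed for Snord101 (edgeR adjusted p = 0.0288), whereas 45S 5201 did not (log2 ratio -2.23, edgeR adjusted p = 0.0605). Neither passed for Snord89 on that scale, with log2 ratios of -1.72 at 45S 5246 and -1.97 at 45S 5201 that were as large as those of the own share (edgeR adjusted p = 0.149 and 0.145).

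**Figure D5:**
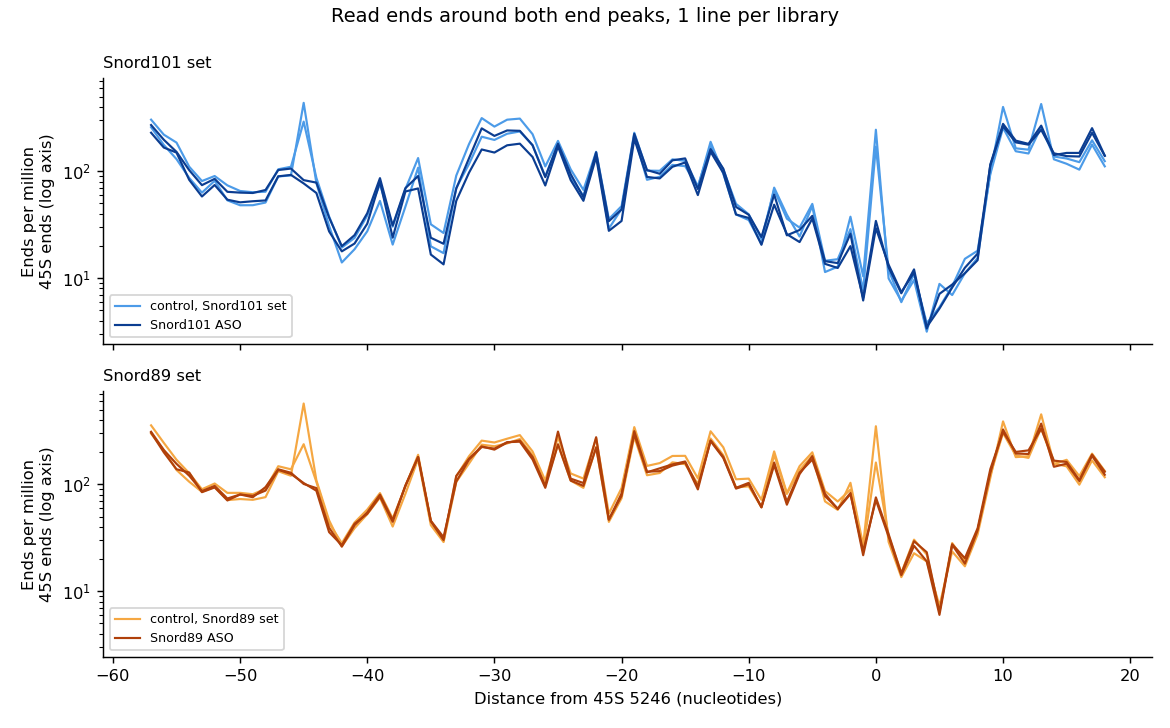
CPM of 45S ends (log axis), 1 line per library, from 12 nucleotides before 45S 5201 to 18 after 45S 5246, in the Snord101 set (top) and the Snord89 set (bottom). At the peaks at -45 and 0 the control lines stand above the knockdown lines.

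By size, the score of 11 tested members was lower by 0.1 or more with the Snord101 ASO, with all knockdown libraries below all controls (7.24%, background 14.8%), and 4 had one higher by as much (2.63%, background 3.73%). Of the 11 that were lower, 8 lie within 6 nucleotides of 45S 5201 or 45S 5246 and so have one of these peaks in their flanks, as have 11 of the 152 tested members. In the Snord89 knockdown 2 members were lower (1.37%, background 6.42%), 45S 5205 and 45S 5248, both within 6 nucleotides of a peak, as are 8 of the 146 tested members, and 0 were higher (background 4.71%). Against the median of the flanks 2 and 0 members were lower, but 105 and 109 members were then tested, and 4 of the 11 and both of the 2 were still among them. The count of 11 was 18 without control replicate 2 and 19 without knockdown replicate 1, and the count of 2 was 5 and 0 without control replicates 1 and 2 of the Snord89 set. The 4 higher in the Snord101 knockdown were 45S 4809, 45S 5002, 45S 5616 and 45S 5760.

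Without a score minimum, the largest negative score difference in the Snord101 comparison was at 45S 5247, next to the peak, from 0.75 and 0.616 to 0.063 and 0.110. The Snord89-set controls scored 0.453 and 0.633 there and the knockdown 0.309 and 0.276. Among the 5 largest negative differences, 45S 5247, 5248 and 5249 lie beside the peak at 45S 5246, 45S 5198 lies beside that at 45S 5201, and 45S 4928 is apart from both, with 0.409 and 0.297 in its controls against 0.135 and 0. The largest positive difference was at 45S 4871, from 0 in both controls to 0.466 and 0.490, and it also ranked among the 5 largest for Snord89, from 0.078 and 0 to 0.169 and 0.236. It had 254 and 167 CPM in the Snord101-set controls and 90.9 and 86.6 in the knockdown, a difference that did not pass (log2 ratio -1.28, SE 0.22, edgeR adjusted p = 0.0709). In 6 of 7 alternatives it did pass, with log2 ratios between -1.54 and -0.94, including the replicate block (edgeR adjusted p = 0.0296) and each fit less 1 library. For Snord89 its log2 ratio was -0.58 (edgeR adjusted p = 0.155), and it passed in 3 of 7 alternatives, among them the replicate block (edgeR adjusted p = 5.93e-05). Its Snord89 ratios ranged from -0.77 to -0.34, the latter without control replicate 2 of that set. 45S 5350 was the other position among the 5 largest positive differences of both comparisons, from 0 and 0.024 to 0.293 and 0.282 and from 0.281 and 0.090 to 0.372 and 0.379. The remaining ones for Snord101 were 45S 4686, 5326 and 5645. At 45S 5326 the scores went from 0.139 and 0.157 to 0.379 and 0.447, whereas in the Snord89 set the controls scored 0.053 and 0.029 and the knockdown 0.032 and 0.052. For Snord89 the 5 largest negative differences were at 45S 4734, 5198, 5242, 5247 and 5249 and the remaining positive ones at 45S 4685, 5190 and 5864.

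The difference between the knockdown effects was tested with an interaction contrast over the 8 neuron libraries. Of 142 tested members 0 passed (background 0.0725%), 9 had an unadjusted p under 0.05, and the lowest edgeR adjusted p was 0.483, shared by 45S 5248, 45S 5616 and the listed site 45S 5685. limma and DESeq2 also passed 0, as did edgeR without a score minimum (background 0.0693%). For the own share of ends, 45S 5201 and 45S 5246 had log2 differences of -0.31 (SE 0.45, edgeR adjusted p = 0.924) and -1.01 (SE 0.42, edgeR adjusted p = 0.772), so a difference between the knockdowns in these falls was not shown. Over all 1202 members 0 passed (background 0.0231%, or 0.0154% for negative differences), and 50 had an unadjusted p under 0.05. DESeq2 size factors passed 2 (45 of 12987 over all tested positions), 45S 5623 and 45S 5625. The interaction counts changed without control replicate 2 of the Snord101 set, which leaves 1 library in that group.

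The 2 control sets, which share the label of a non-targeting ASO, stood further apart than knockdown and control within a set. Their scores over the region correlated with r of 0.889 to 0.907 across positions, against 0.947 to 0.976 between control and knockdown of the Snord101 set and 0.981 to 0.989 in the Snord89 set. These values describe positions, which share flanks and libraries. Of 152 members 31 scored higher by 0.1 without overlap in the Snord101-set controls (20.4%, background 21.2%) and 10 lower (6.58%, background 6.81%). Among the listed sites 4 differed by 0.05 or more, 45S 5454 by 0.134, 45S 4875 by 0.101, 45S 5279 by 0.0791 and 45S 5449 by 0.0716. No knockdown moved the score of a listed site by as much as any of these 4 differences. Most listed sites score close to 1, however, where a change in ends barely moves the score. Differences between the sets in culture, library and sequencing cannot be told apart.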

How the data were processed

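RiboMeth-seq ends of 10 mouse libraries were taken from 3 tables. Per the file headers, the deposited counts are read ends per position, 5′ ends for ESCs and 5′ plus 3′ ends for neurons. The deposited score is a fraction given for each library, and a weighted flanking mean (weights 1.0 to 0.5 over 6 positions a side) gave it back from the counts within 1e-06 at every position of the region. The submitters' processing notes name Trim Galore, cutadapt, Bowtie2 and bedtools, without versions. The reference and the read filters are not given in the sources used here. The 5 deposited columns of spread between the libraries of a group were not used. A library was tied to its control set by the table that holds it.

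End counts were fitted on the whole table with edgeR 4.0.16 (R 4.3.3), the log flanking mean as offset, 1 mean per group and Benjamini-Hochberg adjustment at 0.05. The code was tested on simulated counts. SE is the absolute log2 ratio over the root of F. Alternatives used limma 3.58.1 with a pseudocount of 1 and DESeq2 1.42.0. A mean score minimum can leave out a position that loses all protection, so fits without it were run.

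Positions named were calls (up to 10), listed sites, places of other modified bases, the 5 largest falls and rises without overlap per knockdown, up to 20 positions at 0.9 and the 5 with most ends. Positions 45S 4732, 4809, 4956, 5002, 5205, 5616, 5623, 5625, 5760 and 5776 were named after their values were seen, as were the control positions at 0.75. The region, set by position, and the lists were chosen with earlier results of these data known. The p-values rest on the spread between 2 libraries a group, which the fits combine with the spread at all tested positions. A flanking mean used as offset is taken as known without error. By permutation, 2 against 2 cannot reach 0.05. The sequence of the Snord89 ASO is not reported here.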

Additional observations from a re-analysis of the deposited data

How the results depend on the processing

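The direction at 45S 5248 (Snord101) and at 45S 5201 and 45S 5246 (both knockdowns) was the same in every alternative that tested them. For Snord89 the log2 ratio at 45S 5248 reversed to -0.0252 against the median of the flanks, without passing. The counts of calls changed with the setting, and the cause was not tested. The Snord101 count of 1 became 0 with limma (10 at an unadjusted p under 0.05), 0 with a score minimum of 0.75, 0 against the median of the flanks, 7 with DESeq2, 5 with 4 neuron groups in one fit, 2 with TMM library sizes and no flanking offset (45S 4732 and 45S 4956, with 45S 5248 lost at a log2 ratio of 0.24 and an edgeR adjusted p of 0.803), and 2 each without a score minimum, with the minimum in either group, without a flanking minimum and with a window of 2 positions. Leaving out 1 library gave 0 to 24 (24 without control replicate 2, 14 without control replicate 1, 0 without either knockdown replicate); the library left alone in its group is assumed to vary like the others. The Snord89 count of 0 became 2 with DESeq2 and 0 to 8 with 1 library left out. The interaction count of 0 became 0 to 2 with 1 library left out. For own shares of ends, the Snord101 count of 2 became 22 and the Snord89 count of 2 became 8 with DESeq2 size factors, and with 1 library left out they ranged from 4 to 149 and from 3 to 461. The interaction count of 0 became 2 with DESeq2 size factors and 0 to 18 with 1 library left out.

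With the replicate number as a block, 2 positions passed for Snord101 (28 of 1583 over all tested positions), 45S 5248 and 45S 5249. For Snord89 and the interaction 0 passed (3 of 1465 and 1 of 1380). For own shares 3, 42 and 0 passed (86 of 12997, 503 of 13141 and 3 of 12987). The labels tie no number to a shared culture or day, and deviations of same-numbered libraries correlated at -0.461 (Snord101) and -0.00615 (Snord89) over the region's tested positions. With crossed numbers, 1 position passed for Snord101 (26 of 1583 over all tested positions).

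Members lower by 0.1 numbered 11 (Snord101) and 2 (Snord89). They became 4 and 0 at a difference of 0.2, 59 and 14 without a score minimum, 2 and 0 against the median of the flanks, and 9 to 19 and 0 to 5 with 1 library left out. The ESC footprint of 126 became 299 at a score of 0.5 and 48 at 0.9, and the control footprint of 24 became 104 at 0.5. The listed count of 10 became 16 with 2 offsets. At the listed sites a window of 2 positions moved control scores by -0.0424 to 0.0722 and the median of the flanks moved them by -0.0306 to 0.00932, and 16 of 19 sites stayed at 0.75 or more in the mean under each. Depth is lowest in ESCs, whose lowest flanking mean was 15.8 ends, and a flanking minimum of 100 left 119 of the 126 positions.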

Other observations

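Among the 5 positions with most ends in the controls, 45S 5774 stood out in 1 library. It took 2283 CPM in control replicate 1 of the Snord101 set, against 924 in control replicate 2, 751 and 916 in the Snord101 knockdown and 794 to 925 in the Snord89 set. ESCs had 1249 and 1330. The other 4 were 45S 4893, 5372, 5381 and 5384, and all 5 had a score of 0 in every library.

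At 45S 5876, 1 nucleotide before the last position of 18S, 2883 to 8459 ends were counted in the neuron libraries and 142 and 101 in ESCs, where 3′ ends are not in the count. The flanking means there were 235 to 400 in neurons and 152 and 117 in ESCs.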
